A study of Homo sapiens with 21 samples.

Results

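HELT, SV2C and BMPER are 3 genes of 62699 in the count table, followed here across islet cells differentiated from H1, an established line of human embryonic stem cells. They were chosen by measured values, as the largest rises of cells labelled PAX6-/- over WT cells, both with a BFP vector. Among called rises with a mean of at least 10 CPM (read counts scaled to the size of the library) in the former and no overlap between libraries, they had the 3 largest folds. That contrast is therefore given as a description without a test. PAX6 encodes a transcription factor with a paired domain and a homeodomain that alpha and beta cells of the islet need, and in mice its loss is known to leave islets with more ghrelin-producing cells. HELT encodes a basic helix-loop-helix repressor related to the HES and HEY proteins, known for setting the fate of GABA neurons in the midbrain. SV2C encodes a glycoprotein of the synaptic vesicle membrane, the least widespread member of its family and a receptor for botulinum neurotoxin A. BMPER encodes a secreted protein that binds bone morphogenetic proteins (BMPs) and can limit or favour their signalling.

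The study made 21 RNA-seq libraries in 8 groups, the product of 4 genotypes and 2 vectors. The genotypes were labelled WT, ISL1-/-, PAX6-/- and PDX1-/-, all in H1. Every group went through islet differentiation, received a lentivirus on day 11 that carried ISL1-IRES2-BFP (named "with ISL1" below) or BFP alone ("with BFP"), and was sorted for BFP-positive cells on day 18, so the controls carry a virus and a reporter too. Both WT groups had 2 libraries, as did PDX1-/- with ISL1, and the other 5 groups had 3, which the design text calls biological replicates. The promoter of the vector, the position of each edit and the number of clones behind a genotype are not given in the sources used here.

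Total counts ran from 36.8 to 60.2 M per library. Mitochondrial genes took 3.16% of counts in PAX6-/- with ISL1 replicate 3 and 3.84% in PDX1-/- with ISL1 replicate 4, against 1.28% to 1.93% in the other 19 libraries. ISL1 had 71.6 to 96.8 CPM in ISL1-/- libraries and 306 to 519 CPM in WT libraries. Its counts did not separate the vectors: in WT the mean was 413 CPM ± 150 (SD, n = 2) for the BFP vector and 349 CPM ± 16.9 (SD, n = 2) for the ISL1 vector. PAX6 counts were no lower than WT beyond the spread in the libraries labelled PAX6-/- (94.9 to 318 CPM, against 140 to 232 CPM in WT), and PDX1 had 80.5 to 138 CPM in PDX1-/- and 80 to 102 CPM in WT. Counts per gene do not tell an edited transcript from an intact one, so genotypes and vectors are used as labelled. Replicate 4 of PDX1-/- with ISL1 stood apart in hormone genes too: it had 25612 CPM of INS (insulin) and 106084 CPM of GCG (glucagon), against 164 and 11659 CPM in replicate 2 of its group. INS had 87.5 to 186 CPM in PDX1-/- with BFP and 5651 to 8382 CPM in WT. Values that rest on PDX1-/- with ISL1 are therefore also given without each of its 2 libraries. In ISL1-/-, GCG separated the vectors, with 74.2 to 90.9 CPM for BFP and 2197 to 5362 CPM for ISL1. INS overlapped there, at 1700 to 2392 CPM and 1894 to 2472 CPM. General endocrine genes (CHGA, INSM1, NEUROD1 and others, 11 in all) summed to at least 12712 CPM in every library.

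HELT (ENSG00000187821.9) lies on chromosome 4, from 185018490 to 185020953 on the plus strand, with 1736 bases of exon. SV2C (ENSG00000122012.14) spans 270.6 kb of chromosome 5, from 76083383 to 76353939 on the plus strand, with 11817 bases of exon. BMPER (ENSG00000164619.10) spans chromosome 7 from 33904308 to 34156427 on the plus strand, with 7990 bases of exon. Positions are those of the count table, whose build is GRCh38 per the submitters' processing notes. The sequence before the start of HELT and of SV2C is shown because both genes were higher in each PAX6-/- library than in any other, while a homeodomain core motif was present before only HELT of the pair. These are the 250 bases upstream of the RefSeq start (GRCh38.p14), chr4:185018240-185018489 for HELT and chr5:76083133-76083382 for SV2C, both plus strand, with matches to TAATTA in capitals.
HELT: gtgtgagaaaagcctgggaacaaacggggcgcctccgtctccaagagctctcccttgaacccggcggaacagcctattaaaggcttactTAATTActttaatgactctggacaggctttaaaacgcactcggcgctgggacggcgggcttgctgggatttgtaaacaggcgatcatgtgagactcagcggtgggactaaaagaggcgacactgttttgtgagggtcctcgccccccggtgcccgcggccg
SV2C: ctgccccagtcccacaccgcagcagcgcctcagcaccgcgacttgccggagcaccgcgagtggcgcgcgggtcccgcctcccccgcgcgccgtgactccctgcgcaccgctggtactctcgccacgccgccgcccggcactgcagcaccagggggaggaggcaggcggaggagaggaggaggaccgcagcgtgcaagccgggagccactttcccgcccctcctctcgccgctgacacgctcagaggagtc
TAATTA, the palindromic core that many homeodomains bind, occurred in the HELT sequence at 161 to 156 bases before the start. It was present in 4.35% of the 35116 RefSeq promoter windows of this length. The longer paired homeodomain motif TAATNNNATTA, found in 0.33% of windows, was in neither sequence. CACNAG, a box that HES proteins can bind, was in 32% of windows and occurred before SV2C at 105 to 100 bases. CACGNG, a related box found in 26.7% of windows, was in neither. All motifs were read on both strands and do not overlap in these matches. The HELT sequence had 56.8% G and C and that of SV2C 74.4%, beside a median of 58% over all windows. For BMPER, RefSeq gives 2 starts that lie inside the gene span of the count table, so no upstream sequence is printed. None of their windows held TAATTA, and 1 of them held CACNAG. A match describes letters and is not a measured site.

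HELT was close to silent outside PAX6-/- cells and reached at least 10.8 CPM in all 6 PAX6-/- libraries. With BFP it had 18.4, 13.2 and 21.2 CPM in PAX6-/-, against 0.154 and 0.0302 CPM in WT (7 counts and 1 count). With ISL1 it had 13, 10.8 and 59.1 CPM in PAX6-/-, against 0.147 and 0.271 CPM in WT. Replicate 3 of PAX6-/- with ISL1 stood above all other libraries, and the remaining 5 PAX6-/- libraries lay within a narrow range. HELT had 0.0354 to 0.15 CPM in the 6 ISL1-/- libraries and 0.0437 to 0.83 CPM in the 5 PDX1-/- libraries. The fewest HELT counts in a PAX6-/- library were 669 and the most in any of the other 15 were 31. In these bulk libraries, fewer cells that express a gene and less RNA per cell cannot be told apart.

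SV2C had a smaller range but was as cleanly divided. Its level with BFP was 12.7, 8.09 and 11.3 CPM in PAX6-/-, and 0.11 and 0.272 CPM in WT. With ISL1 it was 9.1, 7.22 and 8.62 CPM in PAX6-/-, and 0.546 and 0.417 CPM in WT. All 6 PAX6-/- libraries were above the other 15, and unlike HELT, SV2C was not raised in replicate 3 of PAX6-/- with ISL1. Some SV2C reads were present elsewhere, with 0.284 to 1.31 CPM in PDX1-/- and 0.054 to 0.295 CPM in ISL1-/-.

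BMPER was high in PAX6-/- cells without being restricted to them. The 3 PAX6-/- libraries with BFP had 14, 10.1 and 12.9 CPM, and the WT libraries with BFP had 0.0879 and 0.363 CPM. With ISL1, the PAX6-/- libraries had 10.6, 6.53 and 13.8 CPM, while WT stood at 1.62 and 2.44 CPM. The highest BMPER value of the series, 16.7 CPM, was in PDX1-/- with ISL1 replicate 2, whose partner replicate 4 had 0.622 CPM. PDX1-/- with BFP had 1.09 to 1.61 CPM, and the ISL1-/- libraries had 0.319 to 0.922 CPM.

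**Figure D1:**
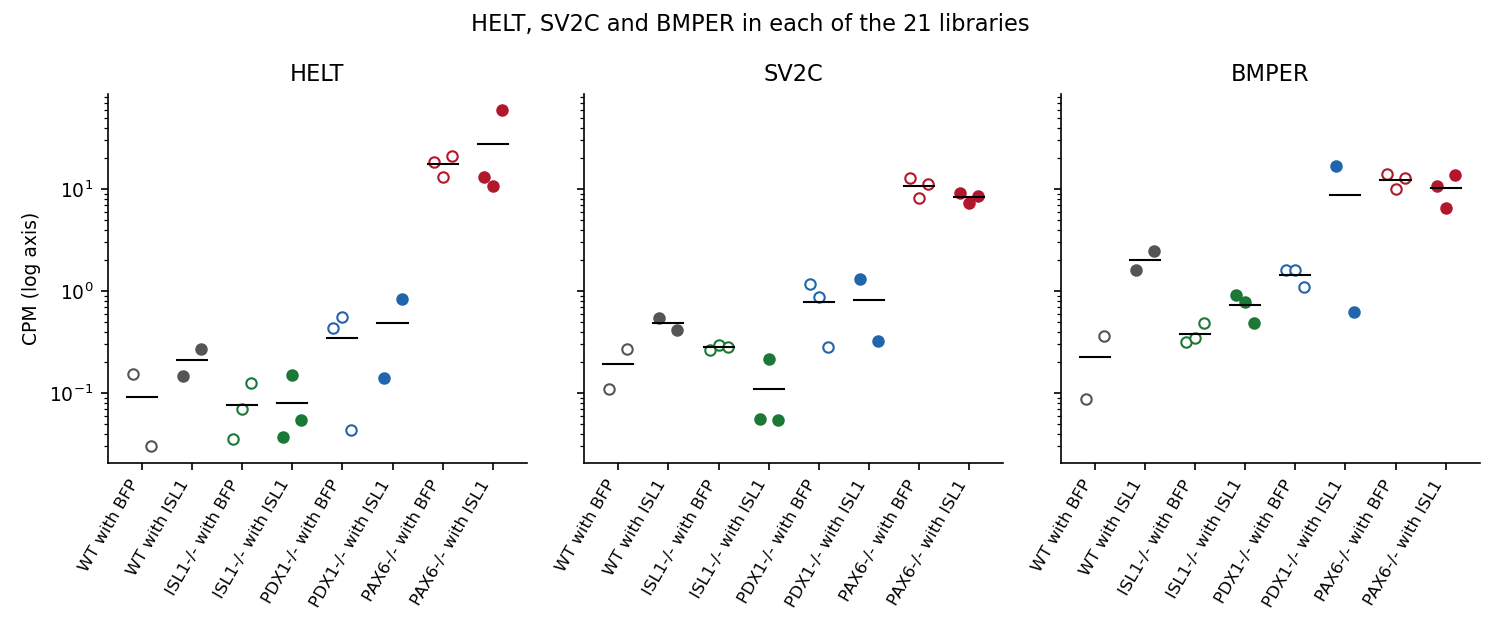
CPM of HELT, SV2C and BMPER (log axis) in the 21 libraries, by group; open points have the BFP vector, filled points the ISL1 vector, and bars are group means. HELT and SV2C are higher in all 6 PAX6-/- libraries (at least 10.8 and 7.22 CPM) than in the other 15, whereas 1 PDX1-/- library with ISL1 has the highest BMPER value, 16.7 CPM.

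The order of the 8 groups by mean put both PAX6-/- groups first for all 3 genes, and these overlapped each other. For HELT, the step from PAX6-/- with BFP (17.6 CPM ± 4.08, SD, n = 3) to the next group, PDX1-/- with ISL1 (0.485 CPM ± 0.487, SD, n = 2), had no overlap, and every pair of neighbouring groups below it overlapped. SV2C showed the same step, from 8.31 CPM ± 0.974 (SD, n = 3) in PAX6-/- with ISL1 to 0.816 CPM ± 0.692 (SD, n = 2) in PDX1-/- with ISL1. Further down, WT with ISL1 (0.481 CPM ± 0.0912, SD, n = 2) lay above ISL1-/- with BFP (0.28 CPM ± 0.0145, SD, n = 3) without overlap. BMPER had no such step at the top. PDX1-/- with ISL1 overlapped the PAX6-/- groups above it and WT with ISL1 below it, which itself was separate from PDX1-/- with BFP (1.43 CPM ± 0.295, SD, n = 3).

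Per length, HELT was the most abundant of the 3 in PAX6-/- cells. Its median over the 6 libraries was 40 TPM (counts per exon length, scaled to the same total in each library), against 5.92 TPM for BMPER and 3.31 TPM for SV2C. In the other 15 libraries the median TPM was 0.309 for HELT, 0.412 for BMPER and 0.0952 for SV2C.

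The rule's own contrast, PAX6-/- with BFP over WT with BFP, gave log2 fold changes of 7.44 for HELT, 5.84 for SV2C and 5.84 for BMPER. In that contrast 2.25% of the 25884 genes tested were called higher, a background from which nothing is read because it chose the genes. The genes just below them among those past the limits on level and overlap were GHRL, which encodes the hormone ghrelin (5.36), KIRREL3 (4.66) and ARHGAP36 (4.62). Another 5 called genes had a larger fold than BMPER but failed the limit on level or overlap. Among them were ENSG00000265179 with 7.13 at 0.338 CPM, ENSG00000287513 with 6.48 at 0.212 CPM and U3 with 6.35 at 0.194 CPM. By fold among all genes tested, called or not, HELT ranked 2, SV2C 33 and BMPER 34. The genes were also ranked by the gap between the lowest PAX6-/- library and the highest of the others, on log2 of CPM with 0.125 added. HELT ranked 1 (3.51), GHRL 2 (2.81) and SV2C 3 (2.36) of all genes tested. BMPER ranked 10894, with a gap of -1.34. Over all genes tested, 0.487% had all 6 PAX6-/- libraries above all 15 others, and 3 of these 6 libraries chose the members.

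The question of whether the rise is also present with the ISL1 vector was tested with libraries that the rule did not use. Against WT with ISL1, HELT rose in PAX6-/- with ISL1 by 7.03 ± 1.07 (log2, SE), or 131-fold, with an adjusted p of 0.00126 in edgeR's quasi-likelihood test. Without both libraries of high mitochondrial share the HELT value was 5.79. Replicate 3 of this PAX6-/- group, with 59.1 CPM of HELT against 13 and 10.8 CPM in the others, is among them. SV2C rose by 4.10 ± 0.64 (17.2-fold, adjusted p 0.0016 in edgeR). BMPER had a log2 difference of 2.35 ± 0.79 and an adjusted p of 0.122 in edgeR, so it was not called. It had 6.53 to 13.8 CPM in these PAX6-/- libraries and 1.62 and 2.44 CPM in WT. The 2 calls of 3 members compare with 3.56% of all genes called in either direction and 1.26% called higher. These libraries come from the same cell line, and perhaps from the same differentiations as those of the rule. Same-numbered PAX6-/- libraries with BFP and with ISL1 correlated at 0.15, 0.39 and 0.33, and differently numbered ones at -0.30 to 0.08. The spread estimate of the model also uses the libraries of the rule. The test is therefore not fully independent of the choice of the genes. The HELT call was lost without WT with ISL1 replicate 1 (6.63, edgeR adjusted p 0.0504) and when only these 2 groups were fitted (7.03, adjusted p 0.0846). BMPER passed the threshold in DESeq2 (2.32, adjusted p 0.0223), in edgeR with the replicate number as a block (2.26, adjusted p 0.00384) and without both libraries of high mitochondrial share (2.06, adjusted p 0.00113).

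The knockout of PAX6 was then set against the other knockouts with the same vector. HELT was higher in PAX6-/- than in ISL1-/- by 8.36 ± 0.96 (log2, SE; edgeR adjusted p 7.29e-05), SV2C by 6.20 ± 0.62 (adjusted p 1.7e-05) and BMPER by 3.82 ± 0.73 (adjusted p 0.00762). All 3 members were called there, beside 2.28% of genes. The BMPER call was lost without ISL1-/- with ISL1 replicate 2 (3.87, adjusted p 0.0501) or replicate 3 (3.60, adjusted p 0.0563). Against PDX1-/- with ISL1, HELT was higher by 5.91 ± 1.00 (edgeR adjusted p 0.00377) and SV2C by 3.30 ± 0.61 (adjusted p 0.00655), beside 2.46% of genes called. BMPER differed there by 0.24 ± 0.72 (adjusted p 0.917), a value that rests on which PDX1-/- library is kept. BMPER became 4.05 (adjusted p 0.000374) without replicate 2, the library with 16.7 CPM, and -0.73 (adjusted p 0.542) without replicate 4. HELT was 5.06 without PDX1-/- replicate 2 and 7.54 without replicate 4, and SV2C was 4.67 and 2.64, all called. HELT was 4.70 without PAX6-/- with ISL1 replicate 3. SV2C lost its call with the replicate number as a block (2.68, adjusted p 0.0667). The calls of HELT and SV2C against PDX1-/- were absent in limma voom (5.35 and 3.52, adjusted p 0.932 for each) and when only those 2 groups were fitted (5.84 and 3.32, adjusted p 1 for each).

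In ISL1-/- or PDX1-/- against WT, all with ISL1, none of the 3 genes was called by edgeR in the model of all groups. In ISL1-/- the log2 differences were -1.33 ± 1.10 for HELT, -2.10 ± 0.65 for SV2C and -1.47 ± 0.75 for BMPER, with edgeR adjusted p of 0.623, 0.0854 and 0.337. That comparison called 3.72% of all genes. SV2C had 0.054 to 0.216 CPM in the 3 ISL1-/- libraries, 2 of which held only 3 counts, and 0.417 and 0.546 CPM in WT. It passed the threshold in DESeq2 (-2.13, adjusted p 0.0175). With the replicate number as a block, SV2C (-2.02, edgeR adjusted p 0.0486) and BMPER (-1.52, 0.028) were called lower in ISL1-/-. Of 8 alternatives that are not single-library removals, 6 called SV2C and 4 called BMPER. In PDX1-/- the differences were 1.12 ± 1.04 for HELT, 0.80 ± 0.63 for SV2C and 2.10 ± 0.82 for BMPER (edgeR adjusted p 0.586, 0.518 and 0.292), and 0.634% of genes were called. The BMPER value changed from 2.10 to -1.71 (adjusted p 0.0382) without PDX1-/- replicate 2 and to 3.05 (adjusted p 0.0016) without replicate 4, and it was 3.07 (adjusted p 0.00294) with the block. HELT became -0.55 and SV2C 1.44 without replicate 4, and 1.96 and -0.57 without replicate 2.

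Between knockouts with BFP that the rule did not use, the fitted values of all 3 genes were lower in ISL1-/- than in PDX1-/-, without a call. The differences were -2.14 ± 0.94 for HELT, -1.48 ± 0.53 for SV2C and -1.90 ± 0.72 for BMPER (edgeR adjusted p 0.23, 0.128 and 0.152), and 5.07% of genes were called. In ISL1-/- and PDX1-/- with BFP, HELT had 0.0354 to 0.124 and 0.0437 to 0.554 CPM, and SV2C 0.266 to 0.295 and 0.284 to 1.18 CPM. BMPER had 0.319 to 0.482 and 1.09 to 1.61 CPM. All 3 passed the threshold without both libraries of high mitochondrial share, neither of which is in these groups (-2.10, -1.44 and -1.86, edgeR adjusted p 0.0296, 0.0278 and 0.000951). Beside WT with BFP, a description since those libraries belong to the rule, PDX1-/- with BFP was higher by 1.80 for HELT, 2.08 for SV2C and 2.73 for BMPER on the log2 scale. ISL1-/- with BFP stood at -0.34, 0.60 and 0.84.

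No effect of the vector on HELT or SV2C was called. In ISL1-/-, ISL1 over BFP gave 0.07 ± 1.11 for HELT, -1.33 ± 0.62 for SV2C and 0.92 ± 0.72 for BMPER (edgeR adjusted p 1, 0.635 and 0.971), and 0.382% of genes were called. SV2C had 0.054 to 0.216 CPM in the ISL1-/- libraries with ISL1 and 0.266 to 0.295 CPM in those with BFP. In PDX1-/-, where 12.5% of genes were called, HELT had 0.38 ± 0.90 and SV2C 0.10 ± 0.56 (edgeR adjusted p 0.803 and 0.925). BMPER was called there, with 2.60 ± 0.73 and an adjusted p of 0.0285, but only 1 of the 2 libraries was high. Without PDX1-/- with ISL1 replicate 2 the value was -1.21 (adjusted p 0.0996), and without replicate 4 it was 3.55. The call was also lost without any one of the 3 PDX1-/- libraries with BFP (2.44 to 2.69, adjusted p 0.0704 to 0.105) and with a block by the title number (2.42, adjusted p 0.0595). The vector effect on BMPER in PDX1-/- minus that in ISL1-/- was 1.68 ± 1.03 (edgeR adjusted p 0.483), a contrast added after the values were seen. In WT and PAX6-/-, whose BFP libraries belong to the rule, the values are descriptions: BMPER was 3.23 higher on the log2 scale with ISL1 in WT, and the 3 genes stood at 0.65, -0.36 and -0.26 in PAX6-/-, HELT first.

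**Figure D2:**
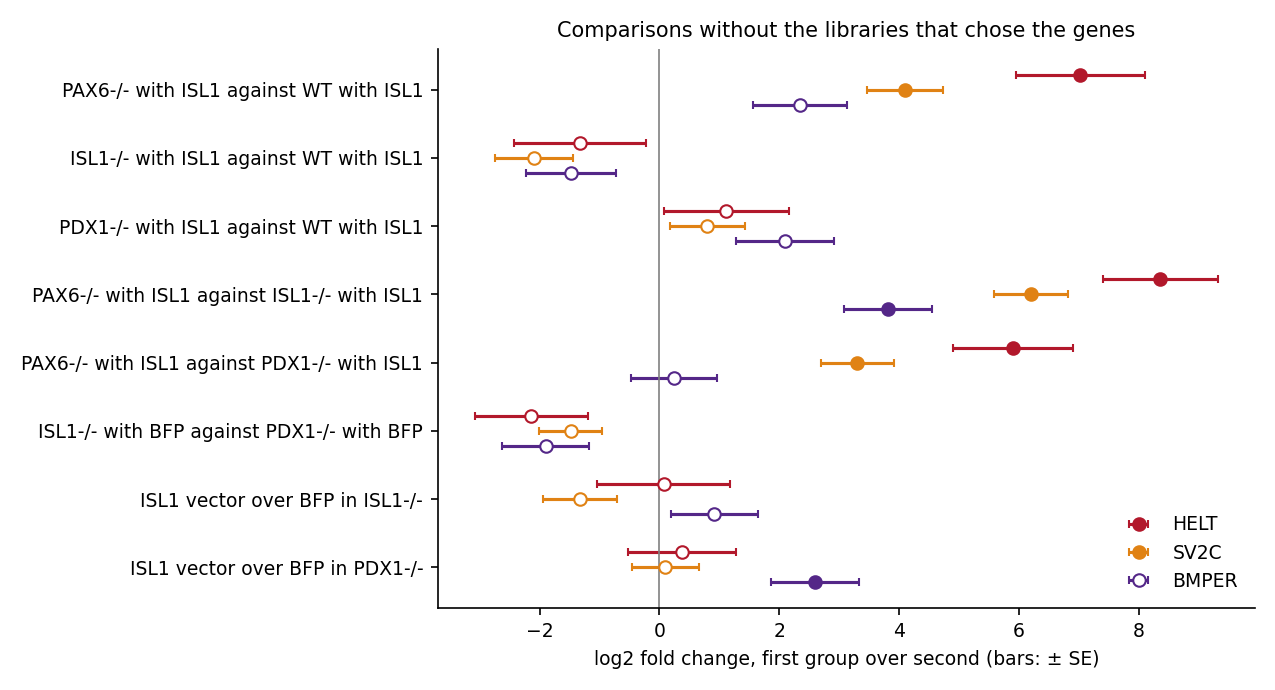
Log2 fold change ± SE of HELT, SV2C and BMPER in the 8 comparisons that use none of the libraries of the rule; filled points passed an adjusted p of 0.05. HELT and SV2C pass in the 3 comparisons that hold PAX6-/- with ISL1, and BMPER passes against ISL1-/- (3.82) and for the vector in PDX1-/- (2.60).

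The genes most like each member were ranked by Pearson correlation of log2 CPM (prior count of 2) over the 21 libraries. The ranking was among 13500 genes with a mean of at least 5 CPM in some group. These libraries share genotypes, so a jump in PAX6-/- alone gives a high value, and the correlations are descriptions. HELT was closest to GHRL (r = 0.97), ENSG00000261572 (0.96) and GRM7 (0.96), a metabotropic glutamate receptor. SV2C was closest to PHACTR3 (0.94), a phosphatase and actin regulator, then to GHRL (0.93) and HELT (0.93). BMPER was closest to COL12A1 (0.92), a collagen of fibrous matrix, to PHACTR3 (0.90) and to SV2C (0.88). By Spearman's rho the lists changed: 1 of the 3 genes was shared for HELT, 2 for SV2C and 1 for BMPER.

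HELT and GHRL were both highest in replicate 3 of PAX6-/- with ISL1. GHRL had 3481, 2519 and 3773 CPM in PAX6-/- with BFP and 2481, 1933 and 15335 CPM in PAX6-/- with ISL1, against 35.8 to 276 CPM elsewhere. For each 1000 GHRL counts there were 5.28, 5.23 and 5.63 HELT counts in PAX6-/- with BFP, and 5.23, 5.58 and 3.86 with ISL1. The ratio was thus lower in replicate 3 with ISL1 than in the other 5 PAX6-/- libraries. The other 15 libraries had 0.361 to 4.02, on HELT counts of 1 to 31. Over the 6 PAX6-/- libraries Pearson's r was 0.20 for HELT and SV2C, 0.68 for HELT and BMPER and 0.76 for SV2C and BMPER, and Spearman's rho was 0.49, 0.77 and 0.83. Over the other 15 libraries Pearson's r was 0.54, 0.28 and 0.67.

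**Figure D3:**
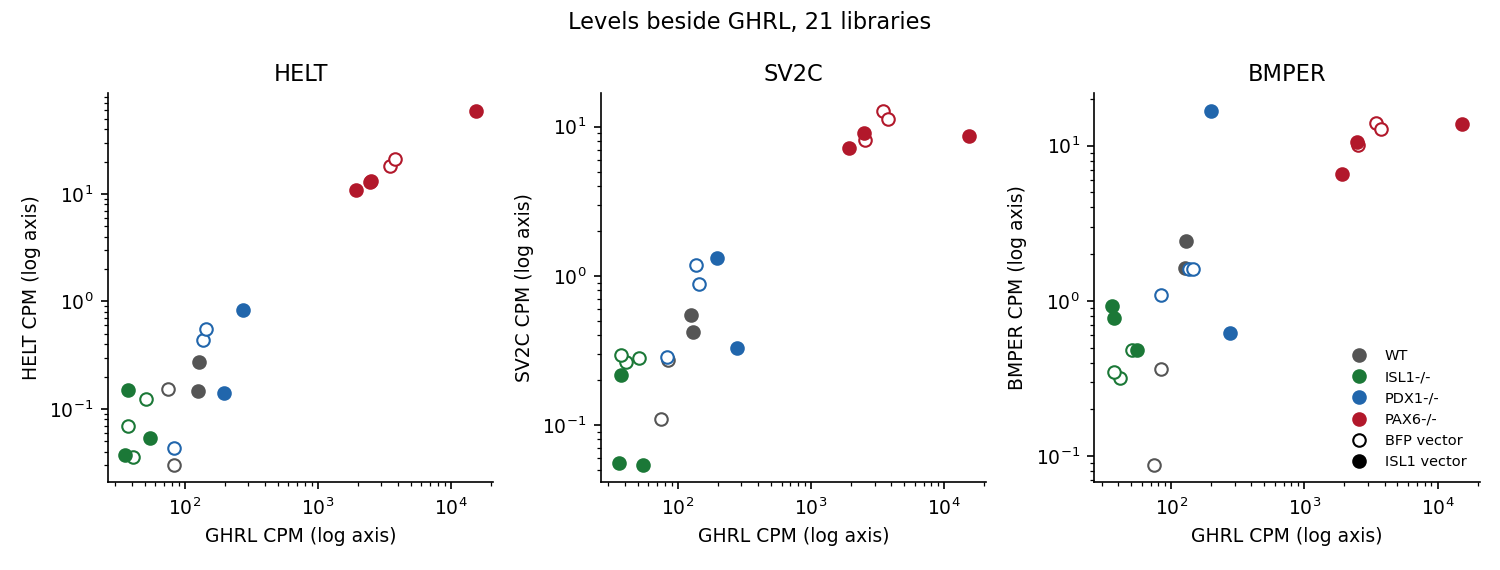
CPM of each member against CPM of GHRL, both on log axes, in the 21 libraries; colours give the genotype, open points BFP and filled points ISL1. HELT rises with GHRL up to 59.1 CPM at 15335 CPM of GHRL, whereas SV2C stays at 8.62 CPM in that library.

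Markers of cell types were read in the same libraries, in a comparison that called 1.26% of all genes higher and 2.3% lower. Of 6 genes listed for ghrelin-producing epsilon cells, 3 rose in PAX6-/- with ISL1 over WT with ISL1, namely GHRL by 5.69 ± 0.76 (log2, SE), MBOAT4, the enzyme that acylates ghrelin, by 1.83 ± 0.37, and ACSL1, a fatty acid activating enzyme, by 2.17 ± 0.57 (edgeR adjusted p 0.000457, 0.00894 and 0.041). Without both libraries of high mitochondrial share, GHRL was 4.09 ± 0.28, MBOAT4 1.48 ± 0.31 and ACSL1 2.21 ± 0.22. The 6 genes summed to 2477 to 16116 CPM in PAX6-/- and 198 to 549 CPM elsewhere, and most of the PAX6-/- sum was GHRL itself (1933 to 15335 CPM). The other 3 overlapped: ANXA13 had 12.6 to 28.7 CPM in PAX6-/- and 8.48 to 59.3 CPM elsewhere, SPTSSB 36.3 to 176 and 12.6 to 107 CPM, and BHMT 30.5 to 74.5 and 15.2 to 63.4 CPM. Of 6 islet hormone genes, GHRL rose while GCG (glucagon) fell by 7.95 and IAPP (amylin) fell by 3.51 on the log2 scale. In edgeR 0 of 10 neuron, 0 of 10 mesenchyme, 0 of 8 enterochromaffin and 0 of 8 duct and exocrine markers were called. At an unadjusted p under 0.05, 5 neuron markers were higher and 1 lower, and no mesenchyme marker differed. At that p 1 enterochromaffin marker differed each way, and 2 duct markers were higher and 1 lower. Over all genes, 4381 of 25884 had such a p in either direction. DESeq2 called 2 neuron markers and 1 duct marker higher and 1 enterochromaffin marker lower. Limma voom called 3 neuron markers higher and 2 lower, 2 mesenchyme markers lower, 2 enterochromaffin markers higher and 1 lower, and 1 duct marker lower. Over all genes, DESeq2 called 700 higher and 1107 lower of 22368, and limma voom 1669 and 2561 of 25884. With BFP, in the contrast of the rule and so without a test, means in PAX6-/- and WT were 29.2 and 7.55 CPM for RBFOX3, 8.14 and 2.13 CPM for TUBB3, 3.90 and 0.926 CPM for ELAVL3 and 0.787 and 0.163 CPM for POU4F1, all neuron markers, and 188 and 50.9 CPM for the enterochromaffin marker SLC18A1. The neuron markers NEFL (72.5 and 87.8 CPM) and NEFM (103 and 139 CPM) were lower in PAX6-/-. The other knockouts with BFP were above WT too. ISL1-/- and PDX1-/- had 25.6 and 20.3 CPM of RBFOX3 and 6.88 and 5.58 CPM of TUBB3. They had 3.90 and 3.47 CPM of ELAVL3, 1.56 and 0.569 CPM of POU4F1 and 185 and 409 CPM of SLC18A1. The 10 neuron markers summed to 441 to 1430 CPM in PAX6-/- and 314 to 796 CPM elsewhere, with the highest sum in replicate 3 of PAX6-/- with ISL1. Mesenchyme markers summed to 191 to 938 CPM in PAX6-/- and 110 to 1899 CPM elsewhere. They were low (132 CPM) in PDX1-/- with ISL1 replicate 2, the library with the most BMPER. Of 8 endothelium markers, 7 were tested: CLDN5 rose by 1.87 and KDR fell by 3.83, and the 8 summed to 77.2 to 171 CPM in PAX6-/- and 84 to 338 CPM elsewhere. Of 11 general endocrine genes 1 rose, NKX2-2, and of 7 liver genes 1 fell, ALB. The part of such cells in the values of HELT, SV2C and BMPER was not tested.

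Of 12 HES, HEY and BHLHE genes, 11 were tested and 0 rose in PAX6-/- with ISL1 over WT with ISL1 at an adjusted p under 0.05 in edgeR, while HEYL fell by 1.96 ± 0.45 and HEY2 fell by 1.00 ± 0.25 on the log2 scale. At an unadjusted p under 0.05 there were 1 higher and 3 lower, beside 4381 of 25884 genes in either direction. DESeq2 and limma voom each called the same counts, beside 1807 of 22368 and 4230 of 25884 genes in either direction. The highest of the list was HES6, at 234 CPM against 102 CPM (1.20 ± 0.34, edgeR adjusted p 0.0614). This list's median was -0.30, beside 0.13 over all genes tested, of which 2.3% were called lower. HES1, a target of Notch, had 135 CPM in PAX6-/- and 125 CPM in WT and a difference of 0.11 ± 0.31. Of 16 genes listed for GABA neurons, the cells in which HELT is best known, 12 were tested. TAL2 rose by 2.13 ± 0.36 (edgeR adjusted p 0.00267) and NKX2-2, which islet cells also use, by 2.14 ± 0.46 (0.0136), whereas GATA2 fell by 2.44 ± 0.42 (0.00354). TAL2 was highest in PDX1-/- with BFP, at 18.6 CPM against 7.99 CPM in PAX6-/- with ISL1, while HELT had 0.345 CPM in the former. GAD2, which makes GABA and is present in islet cells, had 163 CPM in PAX6-/- and 137 CPM in WT (0.25 ± 0.44). The vesicular GABA transporter SLC32A1 was at most 0.202 CPM in any group mean.

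For SV2C, the other members of the family were measured in the same comparison. SV2A had 37 CPM ± 10 (SD, n = 3) in PAX6-/- with ISL1 and 31.6 CPM ± 6.86 (SD, n = 2) in WT with ISL1, a difference of 0.22 ± 0.45 (edgeR adjusted p 0.837). SV2B had 21.1 CPM ± 10.1 (SD, n = 3) against 10.8 CPM ± 2.02 (SD, n = 2), a difference of 0.97 ± 0.49 (adjusted p 0.333). It became 1.29 ± 0.26 (adjusted p 0.00293) without the 2 libraries of high mitochondrial share. Of 17 genes of this family and of vesicle membranes, all tested, 0 rose in edgeR, beside 1.26% of all genes. SLC18A2, the vesicular monoamine transporter, fell by 1.74 ± 0.42, beside 2.3% of all genes called lower. There was 1 higher at an unadjusted p under 0.05, 0 in DESeq2 and 2 in limma voom. Over all genes, 4381 of 25884 had such a p in either direction. DESeq2 called 700 of 22368 genes higher and limma voom 1669 of 25884. The median difference of the 17 was 0.09. The same genotypes with BFP, in the contrast of the rule and so without a test, stood further apart: SV2B had 46.6 CPM in PAX6-/- and 8.21 CPM in WT (log2 difference 2.50), and SV2A had 81.6 and 31 CPM (1.40). The other knockouts with BFP were above WT as well. ISL1-/- and PDX1-/- had 23.9 and 25.1 CPM of SV2B and 50.6 and 102 CPM of SV2A.

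For BMPER, secreted regulators of BMPs came first, again beside 1.26% of all genes called higher and 2.3% lower. Of 20 tested, FST (follistatin, which binds activins) rose by 2.41 ± 0.56 (edgeR adjusted p 0.0213) while of the antagonists GREM1 fell by 4.31 ± 0.88 and NBL1 fell by 1.32 ± 0.19 on the log2 scale. CHRD and TWSG1, which act with BMPER-like proteins, had differences of 0.75 ± 0.54 and -0.44 ± 0.35 and were not called. Of 10 BMP ligands tested, GDF6 fell by 2.62 ± 0.66, and of 10 receptors and SMADs, SMAD9, a SMAD that carries BMP signals, fell by 1.38 ± 0.21. Of 9 target genes of BMP signalling, 0 rose and 3 fell in edgeR: the feedback inhibitor SMAD6 fell by 1.58 ± 0.41, its relative SMAD7 fell by 2.08 ± 0.38 and the homeobox gene MSX2 fell by 2.77 ± 0.70. No target was higher at an unadjusted p under 0.05, in DESeq2 or in limma voom. Over all genes, 4381 of 25884 had such a p in either direction. DESeq2 called 700 of 22368 genes higher and limma voom 1669 of 25884. The median of the 9 was -1.58, beside 0.13 over all genes. ID1 and ID3, the most used readouts of BMP signals, had -2.04 ± 0.70 and -1.91 ± 0.65 and were not called (edgeR adjusted p 0.129 and 0.125). The named targets had means below WT in ISL1-/- with ISL1 too, where BMPER had 0.73 CPM, against 10.3 CPM in PAX6-/- with ISL1. In ISL1-/-, PAX6-/- and WT with ISL1, SMAD7 had 5.57, 4.32 and 18.3 CPM and SMAD6 14.5, 8.85 and 26.5 CPM. In the same order, MSX2 had 0.985, 2.87 and 19.6 CPM, ID1 25.7, 28.9 and 119 CPM and ID3 110, 88.3 and 331 CPM. PDX1-/- with ISL1, where BMPER had 16.7 and 0.622 CPM in its 2 libraries, had means on both sides of WT. They were 6.52 CPM for SMAD7, 9.8 CPM for SMAD6, 15.5 CPM for MSX2, 216 CPM for ID1 and 600 CPM for ID3. Whether BMPER has a part in the levels of these targets was not tested.

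Without PAX6-/- with ISL1 replicate 3 and PDX1-/- with ISL1 replicate 4, these counts grew, as did those over all genes: 4.17% were called higher and 8.03% lower in that fit, so the growth says little about the lists. BMP target genes that fell went from 3 to 7, which then included ID1 (-2.82 ± 0.37) and ID3 (-2.47 ± 0.35). Secreted regulators went from 1 higher and 3 lower to 5 and 5, and the vesicle list from 0 and 1 to 2 and 3. Genes of the HES and HEY list went from 0 and 2 to 1 and 3, and GABA neuron genes from 2 and 1 to 2 and 3. Epsilon markers called higher went from 3 to 5, with 1 lower. Neuron markers went from 0 and 0 to 3 and 2, general endocrine genes from 1 and 0 to 1 and 7, hormone genes from 1 and 2 to 1 and 5 and liver genes from 0 and 1 to 0 and 5. These counts were added after the data were seen, and all 16 lists were chosen with earlier results known.

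**Figure D4:**
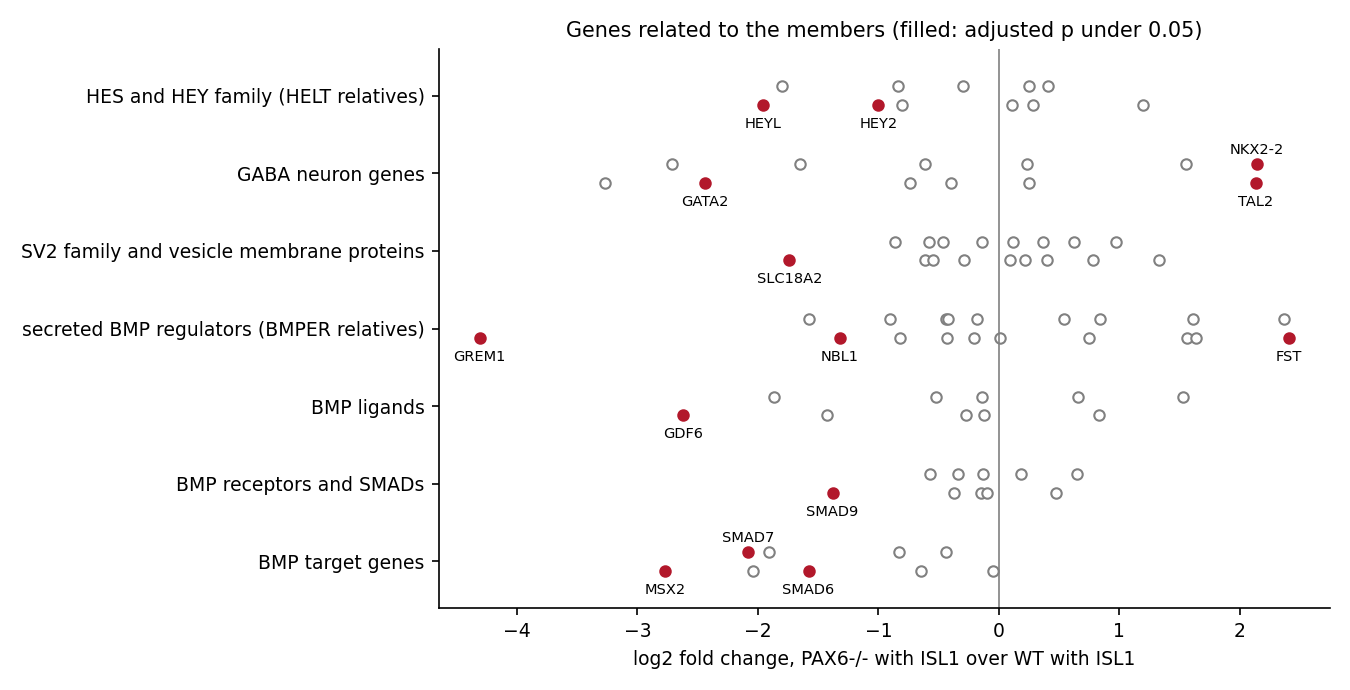
Log2 fold change in PAX6-/- with ISL1 over WT with ISL1 of tested genes in 7 lists related to the members; filled, named points passed an adjusted p of 0.05. The named points lie mostly left of 0, with FST, TAL2 and NKX2-2 to the right.

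Genes near the members were examined in the same comparison. Within 500 kb of HELT, 21 genes were tested and 2 were higher in edgeR, beside 1.26% of all genes. DESeq2 called 3 higher and 2 lower there, beside 700 and 1107 of all 22368 genes it tested. Limma voom called 3 and 3, beside 1669 and 2561 of all 25884 genes. LINC02437, a non-coding RNA 13.3 kb upstream, rose by 5.24 ± 1.03 (edgeR adjusted p 0.00963), from 0.0315 CPM in WT with ISL1 to 1.28 CPM in PAX6-/- with ISL1. ACSL1, 191.7 kb from HELT and also one of the epsilon genes above, rose from 121 CPM to 546 CPM. Of the coding genes on either side, CENPU (0.50 ± 0.32), SLC25A4 (1.18 ± 0.48) and CFAP97 (-0.17 ± 0.20) were not called. The median of the 21 was 0.70.

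Within 500 kb of SV2C, 13 genes were tested and 1 was higher in edgeR, beside 1.26% of all genes. DESeq2 called 1 higher and 1 lower, beside 700 and 1107 of all 22368 genes it tested. Limma voom called 2 and 3, beside 1669 and 2561 of all 25884 genes. The gene called by edgeR was SV2C-AS1, an antisense RNA that overlaps the start of SV2C, with 5.60 ± 1.08 (edgeR adjusted p 0.00868) and means of 1.65 CPM and 0.0314 CPM. The strand setting of the counting is not given in the sources used here, so reads of SV2C and of its antisense partner cannot be told apart in the shared stretch. IQGAP2, 49.3 kb away, had 114 CPM in PAX6-/- and 98.5 CPM in WT. Of 3 genes tested within 500 kb of BMPER, 0 were called in edgeR, DESeq2 or limma voom. At an unadjusted p under 0.05 there was 1, beside 4381 of all 25884 genes. BBS9, 27.1 kb from BMPER, had a difference of -0.11 ± 0.29. Within 1 Mb, the tested genes called higher were 2 of 32 for HELT, 3 of 23 for SV2C and 0 of 11 for BMPER, and 1 was lower, near SV2C.

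**Figure D5:**
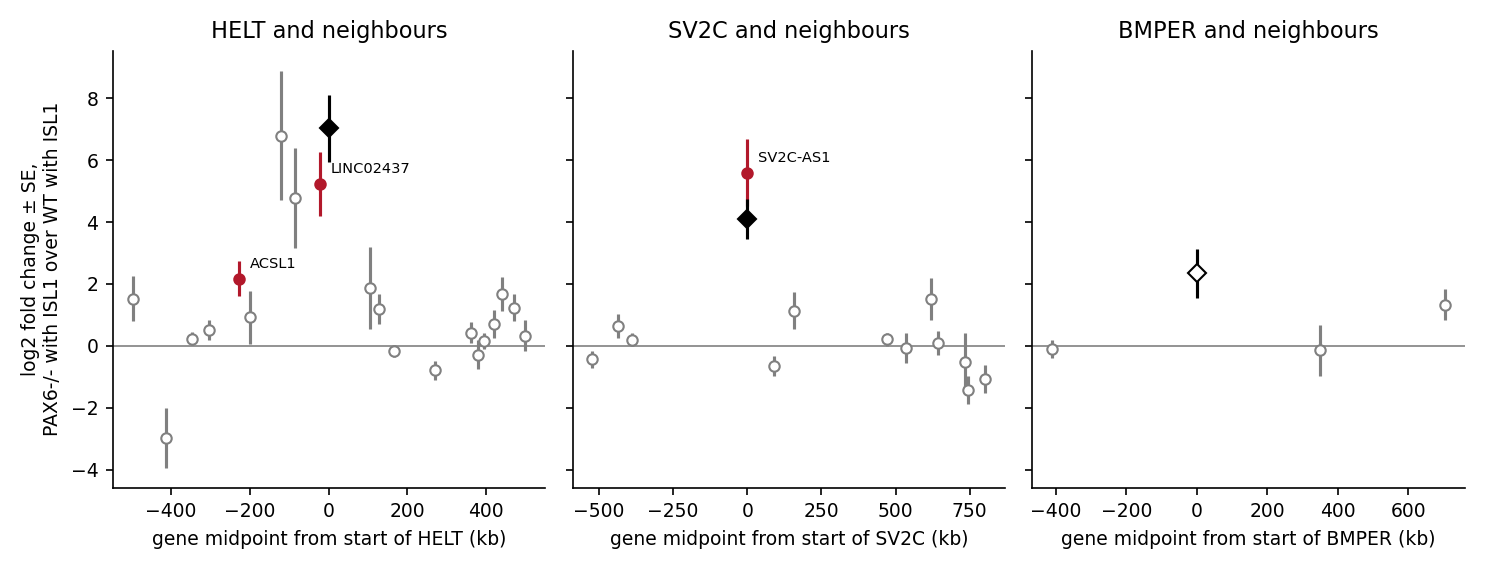
Log2 fold change ± SE in PAX6-/- with ISL1 over WT with ISL1 for genes tested within 500 kb of HELT, SV2C and BMPER, by distance of the gene midpoint in kb; diamonds are the members and red points passed an adjusted p of 0.05. LINC02437 (5.24), ACSL1 (2.17) and SV2C-AS1 (5.60) are the neighbours that passed.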

How the data were processed

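The authors deposited raw read counts per gene with exon positions and lengths, from SMART-Seq v4 libraries per the labels' protocols. The submitters' processing notes name STAR 2.7.11b, featureCounts 2.1.1 and GRCh38. The strand setting, annotation release and treatment of multi-mapping reads are not given in the sources used here. Of 62700 genes listed, 1 broken entry was left out.

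Counts were scaled by TMM and tested with the quasi-likelihood test of edgeR 4.0.16 (R 4.3.3) in 1 model of all 8 groups, so groups share a spread estimate. The filter on low counts (minimum 10, total 15) left 25884 genes, and the 3 members passed it with the PAX6-/- libraries left out too. P-values were adjusted by Benjamini-Hochberg over all genes (threshold 0.05) and measure the spread between these libraries. SE is the log2 fold change over the square root of F. The share of all genes without overlap was counted only for the 6 PAX6-/- libraries against the 15 others. Overlap between other groups is therefore a description. Scripts were tested on simulated data.

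Members and lists were chosen with earlier results of these data known, so no list's direction is independent evidence. Named genes are the members, the 3 nearest to each by correlation, neighbours, up to 4 called genes of each list by size, genes next to the members in the rule, SV2A and SV2B. HES1, HES6, GAD2, SLC32A1, ANXA13, SPTSSB, BHMT, RBFOX3, TUBB3, ELAVL3, POU4F1, NEFL, NEFM, SLC18A1, CHRD, TWSG1, ID1 and ID3 were chosen after their values were seen. Alternatives were other size factors, DESeq2 1.42.0, limma 3.58.1 (voom), no filter, fewer groups, replicate blocks and leaving out libraries. Some genes of the lists and neighbourhoods are counted but not reported here by name or drawn.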

Additional observations from a re-analysis of the deposited data

Results flagged for a closer look

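Under the ISL1 vector, the effect of the PAX6 knockout differed from that of another knockout, both against the same WT libraries, for 5 values. Against ISL1-/-, the difference was 8.36 for HELT, 6.20 for SV2C and 3.82 for BMPER on the log2 scale. Against PDX1-/-, it was 5.91 for HELT and 3.30 for SV2C. Each was flagged because the test of the difference between knockouts in edgeR passed an adjusted p of 0.05. No group held 4 or more libraries, so single libraries were not screened, and 59.1 CPM of HELT and 16.7 CPM of BMPER stand as values only.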

How the results depend on the processing

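All values are log2 differences unless called counts. SV2C in PAX6-/- against WT, and HELT and SV2C in PAX6-/- against ISL1-/-, all with ISL1, passed the threshold in all 21 fits that leave out 1 library and all 8 other alternatives. Over the 3 genes and 8 tests, 622 alternatives kept direction and call. With the direction kept, 36 gained a call and 15 lost one. Another 20 changed sign, with or without a change of call. The cause of a change was not tested.

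The count of genes called in PAX6-/- against WT with ISL1 (922) was 1807 in DESeq2, 4230 in limma voom, 43 with only the groups compared, 1816 with a replicate block by description number, 3329 without both libraries of high mitochondrial share, and 182 to 1853 leaving out 1 library (182 without WT with ISL1 replicate 1, 241 without replicate 2, 1852 and 1853 without PDX1-/- with ISL1 replicate 2 or 4).

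DESeq2 added calls for BMPER in PAX6-/- against WT (2.32), SV2C in ISL1-/- against WT (-2.13), and SV2C (-1.46) and BMPER (-1.88) in ISL1-/- against PDX1-/- with BFP. Limma voom added BMPER in PAX6-/- against WT (2.19), SV2C (-2.04) and BMPER (-1.38) in ISL1-/- against WT and BMPER in ISL1-/- against PDX1-/- (-1.90), and lost HELT (5.35) and SV2C (3.52) in PAX6-/- against PDX1-/- and BMPER for the vector in PDX1-/- (1.46). No filter on low counts added BMPER in PAX6-/- against WT (2.28) and SV2C in ISL1-/- against WT (-2.13). Fitting only the groups compared lost HELT in PAX6-/- against WT (7.03) and against PDX1-/- (5.84), SV2C against PDX1-/- (3.32) and BMPER for the vector in PDX1-/- (2.61). It added SV2C (-2.12) and BMPER (-1.49) in ISL1-/- against WT and BMPER in ISL1-/- against PDX1-/- (-1.84). In that fit HELT was filtered out of 3 comparisons and has no value.

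The replicate block by description number gave BMPER 2.26 in PAX6-/- against WT, SV2C -2.02 and BMPER -1.52 in ISL1-/- against WT, BMPER 3.07 in PDX1-/- against WT and -1.92 in ISL1-/- against PDX1-/- with BFP, all called. With it SV2C in PAX6-/- against PDX1-/- was 2.68 and not called, and HELT in PDX1-/- against WT (-0.61), BMPER in PAX6-/- against PDX1-/- (-0.81) and HELT for the vector in PDX1-/- (-1.24) changed sign. A replicate block by title number gave -0.01 for SV2C and 2.42 for BMPER for the vector in PDX1-/-, where the BMPER call was lost (adjusted p 0.0595). Same-numbered libraries of PAX6-/- with BFP and with ISL1 correlated at 0.15, 0.39 and 0.33 and differently numbered ones at -0.30 to 0.08, so the numbers pair libraries there, a comparison that was not tested. They correlated at 0.17, 0.01 and 0.11 between PAX6-/- and ISL1-/- with ISL1, where differently numbered ones gave -0.15 to 0.02. Between the vectors in ISL1-/- they correlated at 0.18, 0.10 and 0.29, above the -0.22 to 0.07 of differently numbered ones. With ISL1, PAX6-/- and WT gave 0.17 and -0.17, ISL1-/- and WT -0.06 and 0.03, and PDX1-/- and WT -0.28. The vectors gave -0.21 in PDX1-/- and -0.04 in WT, and ISL1-/- and PDX1-/- with BFP gave 0.03, -0.06 and 0.07. Between ISL1-/- and PDX1-/- with BFP, differently numbered libraries gave -0.08 to 0.05, a range that overlaps the same-numbered ones. With 2 libraries in a group, the values of same and different numbers mirror each other. Comparisons with WT or with PDX1-/- with ISL1 therefore cannot show whether the numbers pair libraries. Calls with the block are given as alternatives to the main fit, which has no block.

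Without both libraries of high mitochondrial share, added calls were BMPER 2.06 in PAX6-/- against WT, SV2C -2.11 and BMPER -1.49 in ISL1-/- against WT, BMPER 3.05 in PDX1-/- against WT, and HELT -2.10, SV2C -1.44 and BMPER -1.86 in ISL1-/- against PDX1-/-. HELT in PDX1-/- against WT (-0.55), BMPER in PAX6-/- against PDX1-/- (-0.99) and HELT for the vector in PDX1-/- (-1.28) changed sign.

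Leaving out 1 library moved PAX6-/- against WT from 5.81 to 7.52 for HELT and from 2.06 to 2.67 for BMPER. ISL1-/- against WT ran from -3.08 to -1.79 for SV2C and from -1.75 to -1.15 for BMPER. PDX1-/- against WT ran from -0.55 to 1.96 for HELT, from -0.57 to 1.44 for SV2C and from -1.71 to 3.05 for BMPER. BMPER in PAX6-/- ran from 3.55 to 4.06 against ISL1-/- and from -0.73 to 4.05 against PDX1-/-, and in ISL1-/- against PDX1-/- from -2.10 to -1.78. The vector effect ran from -0.74 to 0.61 for HELT in ISL1-/-, and in PDX1-/- from -1.30 to 1.22 for HELT, from -1.27 to 0.74 for SV2C and from -1.21 to 3.55 for BMPER.

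Depth limits HELT most: outside PAX6-/- it rests on 1 to 31 counts per library, so differences among those groups are poorly measured. Groups of 2 libraries limit the comparisons with WT and PDX1-/- with ISL1.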
